A study of Mus musculus with 6 samples.

Results

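The CC chemokine ligands described here are 10 mouse genes, Ccl2, Ccl3, Ccl4, Ccl5, Ccl6, Ccl7, Ccl8, Ccl9, Ccl11 and Ccl12, out of 43432 genes listed for each library. They were found by symbol through the Ensembl identifiers of the deposited counts, and all 10 were present and passed the filter on low counts. RNA sequencing covered 6 libraries, 3 with titles naming them FID and 3 naming them Control, all of them with the tag D3, and neither abbreviation is spelled out in the sources used here. The study behind them deals with mice whose Igf1, the gene of the growth factor IGF-I, was removed from the mesenchymal progenitors of muscle known as fibro-adipogenic progenitors (FAPs). Per the labels' protocols, mice of the study received tamoxifen in corn oil by injection into the abdominal cavity at 12 to 13 weeks of age, at 100 ug for each g of body mass, once on each of 5 days, experiments began after at least 1 week, and both sexes were used. No label restricts tamoxifen to either group. The sources used here give neither the Cre driver, the floxed allele, the strain nor the sex of each library. They also do not say that libraries within a group represent different mice, and the p-values therefore cover a spread between libraries that may in part be technical.

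Total RNA from samples labelled skeletal muscle was sequenced to between 8750157 and 9676812 gene counts in FID libraries and between 5201853 and 10093757 in Control libraries, with Control 1 the shallowest. Values are in CPM, counts scaled to the same library total after adjustment by trimmed means (TMM). For a gene with no count, the upper limit is 3 counts, or 0.293 to 0.593 CPM depending on the library, from counting error only. Igf1 stood at 109, 107 and 81.6 CPM in FID 1, 2 and 3, against 134, 60.4 and 106 CPM in Control 1, 2 and 3 (log2 fold change -0.01, SE 0.28, edgeR adjusted p 0.990). Counts cover the whole gene and the deleted part is not named, so this gene does not check the labels, and FID and Control stand below for libraries so labelled. Myofibre transcripts were low for the labelled tissue. The 7 myofibre markers summed to 17.9 to 34.9 CPM in FID libraries and 10.4 to 67.8 CPM in Control libraries, and 5 of the 7 passed the filter. Acta1, skeletal muscle actin, reached 16.2 CPM in FID 1 and 30.9 CPM in Control 1. Ckm, the muscle creatine kinase, did not pass the filter and reached at most 1.19 CPM in FID libraries and 0.976 CPM in Control libraries. Mb, myoglobin, did not pass either and reached at most 0.864 CPM and 1.56 CPM. FID 1 and Control 1 stood apart from the other libraries of their groups in several gene lists.

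Chemokines are small secreted proteins that bind heparan sulphate on cell surfaces and matrix and guide leukocytes through G protein-coupled receptors. The CC class is named for a pair of adjacent cysteines near the start of the mature protein. In injured muscle, ligands of the receptor CCR2 are known to draw monocytes from the blood, which become the macrophages that clear debris. Stromal cells, endothelium and macrophages are all known sources of such ligands.

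All 10 genes lie on mouse chromosome 11 (mm10, GENCODE annotation of the same assembly) in a pair of clusters. The first spans 81229 bases from 82035571 to 82116799 and holds, in order, Ccl2, Ccl7, Ccl11, Ccl12 and Ccl8, all on the plus strand. No other protein-coding gene lies wholly within it, but Gm17268, annotated as protein-coding on the minus strand, overlaps Ccl2 and extends past the cluster's start. The second spans 138906 bases from 83525778 to 83664683 and holds Ccl5, Ccl9, Ccl6 and Ccl3 on the minus strand and Ccl4 on the plus strand, together with Rpl9-ps1, which is annotated as protein-coding. Although the genes are related by duplication, their transcripts were distinct in sequence at read scale. No member shared more than 3.98% of its 31-base words with any other annotated gene, the highest share being that of Ccl9 with the zinc finger gene Zfp729a among others, and for Ccl2, Ccl3, Ccl4, Ccl7, Ccl8 and Ccl12 the share was 0. No exon of a member overlapped an exon of another annotated gene, although Ccl2 and Ccl6 each overlapped a gene on the opposite strand.

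Promoter windows from RefSeq (GRCm38.p6, from 250 bases before to 50 bases after the annotated start) were matched for 5 of the 10 members, namely Ccl3, Ccl6, Ccl8, Ccl9 and Ccl12. Those of Ccl12 and Ccl8, neighbours with large differences between the groups, are shown beside those of Ccl9, with a smaller difference, and Ccl3, with almost none. They read 5′ to 3′ on the gene's strand, and capitals mark the matches described after them. The windows are chr11:82101595-82101894 on the plus strand for Ccl12, chr11:82114935-82115234 on the plus strand for Ccl8, chr11:83578587-83578886 on the minus strand for Ccl9 and chr11:83649329-83649628 on the minus strand for Ccl3.
Ccl12: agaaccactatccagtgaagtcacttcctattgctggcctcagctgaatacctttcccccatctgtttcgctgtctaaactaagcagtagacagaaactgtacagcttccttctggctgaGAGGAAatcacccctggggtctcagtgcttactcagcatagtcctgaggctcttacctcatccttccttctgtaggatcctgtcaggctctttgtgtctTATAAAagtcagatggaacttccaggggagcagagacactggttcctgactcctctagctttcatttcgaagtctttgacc
Ccl8: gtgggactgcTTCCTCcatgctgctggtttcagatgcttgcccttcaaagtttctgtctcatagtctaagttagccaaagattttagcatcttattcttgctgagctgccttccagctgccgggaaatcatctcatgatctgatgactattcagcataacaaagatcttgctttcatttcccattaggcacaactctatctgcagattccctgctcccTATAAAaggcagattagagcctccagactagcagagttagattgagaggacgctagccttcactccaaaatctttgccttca
Ccl9: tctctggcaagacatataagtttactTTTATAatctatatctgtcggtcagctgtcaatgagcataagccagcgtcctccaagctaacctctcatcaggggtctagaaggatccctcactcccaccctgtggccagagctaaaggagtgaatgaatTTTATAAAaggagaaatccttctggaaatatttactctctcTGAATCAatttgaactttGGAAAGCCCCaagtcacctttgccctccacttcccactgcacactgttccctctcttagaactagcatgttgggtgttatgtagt
Ccl3: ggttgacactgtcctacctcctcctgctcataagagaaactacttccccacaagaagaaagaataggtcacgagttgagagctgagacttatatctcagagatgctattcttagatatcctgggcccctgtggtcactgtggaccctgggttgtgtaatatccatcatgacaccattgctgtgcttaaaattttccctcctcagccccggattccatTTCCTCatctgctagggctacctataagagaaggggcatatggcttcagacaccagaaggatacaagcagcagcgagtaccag

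Each window was searched on both strands for 6 motifs. Counting the first transcribed base as 1, Ccl12 and Ccl8 each held TATAAA on the gene's strand, from -31 to -26 in Ccl12 and from -32 to -27 in Ccl8. This motif was found in 14.2% of 27025 promoter windows of the same length, taking the first window listed for each gene. Ccl9 also held it, at 3 places of which a pair overlap, and Ccl3 did not. Only these exact letters were counted, and the Ccl3 window does hold TATAAG. The core bound by ETS factors such as PU.1, GAGGAA, was found in Ccl12, Ccl8 and Ccl3 and in 28.3% of all windows. Ccl9 alone among the 5 members held a match to the NF-kB consensus and to the AP-1 motif TGANTCA, which were found in 8.18% and 7.93% of all windows. None of the 5 held the interferon response core (GAAA repeated after 2 bases of any kind, 3.49% of all windows) or the STAT motif TTCNNNGAA (8.47%), and Ccl6 held no match to any of the 6. A match describes the letters of a window and says nothing of binding.

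Levels of different genes can be compared per length of annotated exon. On the scale of CPM per kb, Ccl2 and Ccl7 were the most abundant ligands in both groups. Ccl2 averaged 312 ± 102 CPM per kb in FID libraries and 188 ± 83.7 CPM per kb in Control libraries, and Ccl7 averaged 312 ± 66.8 and 242 ± 52.2 (SD, n = 3 each). Next in both came Ccl11, at 155 ± 66.1 CPM per kb in FID and 60.4 ± 9.36 CPM per kb in Control. The ranges of Ccl2 and Ccl7 overlapped within each group, and the lower-ranked of them lay apart from Ccl11, although FID 1 had less Ccl2 than FID 2 had Ccl11. Ccl8 held rank 5 in FID libraries, at 76.6 ± 27.0 CPM per kb, and rank 8 in Control libraries, at 18.3 ± 1.34 CPM per kb. Ccl5 was the lowest of the 10 in both groups, at 19.7 ± 20.8 CPM per kb in FID and 2.75 ± 1.15 CPM per kb in Control. Below Ccl11, neighbours in the order overlapped in every case except Ccl8 and Ccl12 in Control libraries.

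Of the 10 ligands, 9 had a log2 fold change of FID over Control above 0, which held for 47.8% of the 12881 genes tested. The median over the 10 was 0.83, against -0.02 over all genes tested. With edgeR (quasi-likelihood, two-sided, Benjamini-Hochberg adjustment over all genes), 0 of the 10 passed 0.05, as did 0 of all genes (0.00%). An unadjusted p under 0.05 with FID higher was reached by 6 of the 10, against 9.81% of all genes, and with FID lower by none of the 10, against 9.21%. In 5 of the 10, Ccl6, Ccl8, Ccl9, Ccl11 and Ccl12, every FID library lay above every Control library, against 13.0% of all genes, and none showed the opposite order, against 12.3%. DESeq2 called 6 of the 10, all higher in FID, against 3.89% of all genes it adjusted. Without FID 1, edgeR called 4 of the 10, Ccl5, Ccl8, Ccl11 and Ccl12, against 1.93% of all genes. It called Ccl8, Ccl11 and Ccl12 without a filter on low counts (1.02% of genes higher in FID) and none of the 10 without Control 1 (0.0233%). Limma-voom with sample weights called Ccl6, Ccl8, Ccl9, Ccl11 and Ccl12 (6.88%).

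**Figure D1:**
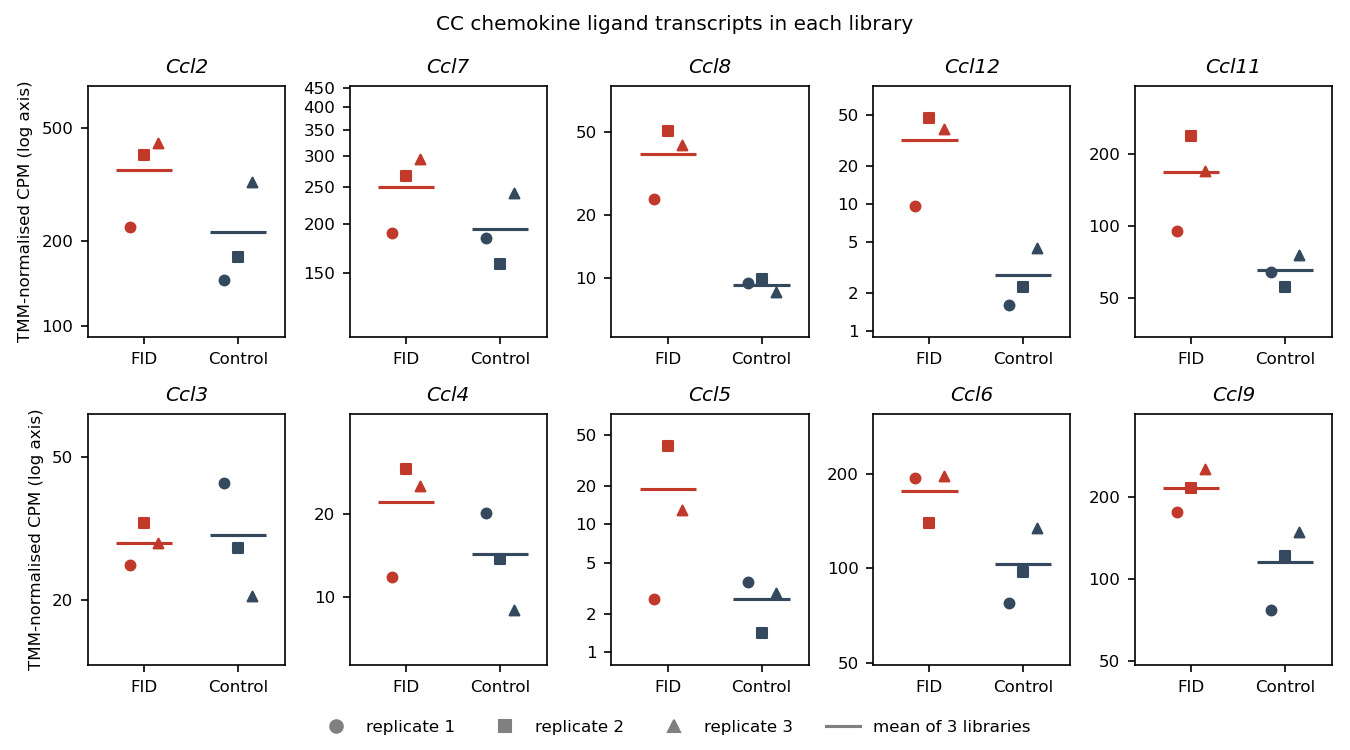
TMM-normalised CPM (log axis, a different range in each panel) of the 10 ligands in the 3 FID and 3 Control libraries, with symbols for replicate numbers and bars for group means. In Ccl8, Ccl12, Ccl11, Ccl6 and Ccl9 every FID library lies above every Control library, and in Ccl5 FID 1 lies among the Control libraries.

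The ligands of CCR2, the receptor of inflammatory monocytes, differed among themselves. Ccl2, which is the best known of these monocyte attractants, stood at 224, 401 and 441 CPM in FID 1, 2 and 3, against 145, 175 and 323 CPM in Control 1, 2 and 3. Control 3 exceeded FID 1, so the groups overlapped. Its log2 fold change of 0.73 (SE 0.36, 95% interval -0.11 to 1.57) had an adjusted p of 0.313 in edgeR and ranged from 0.51 without Control 1 to 1.17 without Control 3.

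Ccl7, the gene next to Ccl2 and also an agonist of CCR2, stood at 190.2, 266 and 294 CPM in FID 1, 2 and 3, against 184, 158 and 240.0 CPM in Control 1, 2 and 3. The groups overlapped here too, with the same pair of libraries crossing. For Ccl7 the log2 fold change was 0.36 (SE 0.22, 95% interval -0.14 to 0.87, adjusted p 0.394 in edgeR).

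Ccl12, a CCR2 ligand of mice, had the largest fold change of the 10. It stood at 9.69, 47.7 and 38.8 CPM in FID 1, 2 and 3, against 1.58, 2.23 and 4.49 CPM in Control 1, 2 and 3, which rest on 8, 22 and 46 counts in the Control libraries. The lowest FID library lay above the highest Control library, and FID 1 lay nearer to Control than to the other FID libraries. This was an 11-fold higher level (log2 fold change 3.46, SE 0.64, 95% interval 1.96 to 4.97, adjusted p 0.136 in edgeR). The adjusted p was 2.03e-06 in DESeq2 and 0.0229 in edgeR without FID 1.

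Relative to Ccl2 in the same library, which no library scaling affects, Ccl12 stood at 0.0433, 0.119 and 0.0879 in FID 1, 2 and 3, against 0.0109, 0.0128 and 0.0139 in Control 1, 2 and 3. These ratios of CPM did not overlap between the groups. The ratio of Ccl7 to Ccl2 did overlap, at 0.850, 0.664 and 0.665 in FID against 1.27, 0.906 and 0.744 in Control.

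Ccl8 is an agonist of CCR8 in mice and lies next to Ccl12. It stood at 23.8, 50.4 and 43.2 CPM in FID 1, 2 and 3, against 9.49, 9.93 and 8.59 CPM in Control 1, 2 and 3. The Control libraries were close together (SD 0.684 CPM) and the lowest FID library lay well above all of them. The level was 4.19-fold higher (log2 fold change 2.07, SE 0.28, 95% interval 1.40 to 2.73, adjusted p 0.122 in edgeR). The log2 value ranged from 1.84 without FID 2 to 2.34 without FID 1, the narrowest such range among Ccl8, Ccl12 and Ccl5. Ccl7 (0.23 to 0.56), Ccl6 (0.61 to 1.03) and Ccl9 (0.67 to 1.13) had narrower ranges. DESeq2 gave an adjusted p of 1.50e-07 for Ccl8. Relative to Ccl2, Ccl8 stood at 0.106, 0.126 and 0.0979 in FID against 0.0654, 0.0569 and 0.0266 in Control, with no overlap.

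Ccl11, or eotaxin, attracts eosinophils through CCR3 and is made by stromal cells in many tissues. It stood at 95, 238 and 170.2 CPM in FID 1, 2 and 3, against 64.7, 55.6 and 75.8 CPM in Control 1, 2 and 3. No library crossed between the groups, with FID 1 the closest to Control. Ccl11 was 2.57-fold higher (log2 fold change 1.36, SE 0.32, 95% interval 0.62 to 2.10, adjusted p 0.136 in edgeR). The adjusted p was 0.00381 in DESeq2 and 0.0277 in edgeR without FID 1. Relative to Ccl2, Ccl11 stood at 0.424, 0.593 and 0.386 in FID against 0.4455, 0.318 and 0.235 in Control, and the groups overlapped. None of 5 eosinophil markers passed the filter on low counts. Their summed level was 1.79 to 2.25 CPM in FID and 1.27 to 1.83 CPM in Control, with Epx, the eosinophil peroxidase, and Il5ra, the interleukin-5 receptor, at 0 in every library.

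**Figure D2:**
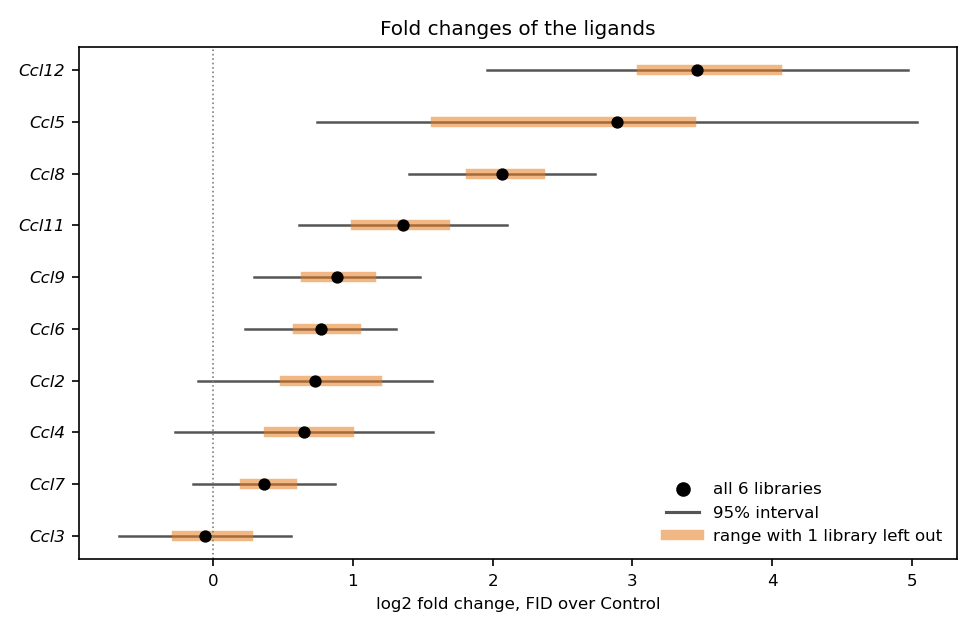
Log2 fold changes of FID over Control for the 10 ligands, with points for all 6 libraries, thin lines for 95% intervals and thick bars for the range when 1 library is left out. Ccl12, Ccl5, Ccl8 and Ccl11 lie above 1 with intervals clear of 0, and the bar of Ccl3 spans 0.

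Ccl3, Ccl4 and Ccl5, made by activated macrophages and lymphocytes, differed in their patterns. Ccl3, an inflammatory attractant that acts through CCR1 among other receptors, stood at 25.1, 32.8 and 28.8 CPM in FID 1, 2 and 3, against 42.3, 27.9 and 20.6 CPM in Control 1, 2 and 3. The FID libraries lay inside the range of the Control libraries. The log2 fold change was -0.05 (SE 0.26, adjusted p 0.932 in edgeR), and its sign changed when Control 1 (0.26) or FID 1 (0.05) was left out. The 95% interval of -0.67 to 0.56 leaves room for a difference in either direction.

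Ccl4, an attractant of lymphocytes and monocytes encoded next to Ccl3 on the opposite strand, stood at 11.8, 29.2 and 25.4 CPM in FID 1, 2 and 3, against 20.2, 13.8 and 8.98 CPM in Control 1, 2 and 3. The groups overlapped because FID 1 was below Control 1 and Control 2. Ccl4 had a log2 fold change of 0.65 (SE 0.40, 95% interval -0.27 to 1.58, adjusted p 0.400 in edgeR). The ratio of Ccl4 to Ccl3 was 0.471 in FID 1 and 0.436 to 0.495 in the Control libraries, but 0.891 in FID 2 and 0.880 in FID 3.

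Ccl5, which acts on T cells and monocytes through several receptors, CCR1 and CCR3 among them, was the most uneven member among the FID libraries. It stood at 2.59, 41.2 and 13.0 CPM in FID 1, 2 and 3, against 3.56, 1.42 and 2.93 CPM in Control 1, 2 and 3. FID 1 lay within the Control range, and FID 2 and FID 3 far above it. The estimated log2 fold change was 2.89 (SE 0.92, 95% interval 0.74 to 5.03, adjusted p 0.179 in edgeR). It was 3.42 without FID 1 (edgeR adjusted p 0.0441) and 1.60 without FID 2. Markers of T and NK cells were low in all libraries. Their 10 genes summed to 7.21 to 12.5 CPM in FID and 1.27 to 14.0 CPM in Control, 1 of the 10 passed the filter on low counts, and Cd3e, a chain of the T cell receptor complex, had no count in any library.

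Ccl6 and Ccl9, neighbouring genes without a direct human counterpart that act through CCR1, had similar fold changes. Ccl6 stood at 193, 139 and 197 CPM in FID 1, 2 and 3, against 77.7, 97.6 and 134 CPM in Control 1, 2 and 3. FID 2 exceeded Control 3 by a small margin, and the groups did not overlap. Ccl6 had a log2 fold change of 0.77 (SE 0.23, 95% interval 0.23 to 1.31, adjusted p 0.167 in edgeR).

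Ccl9 stood at 176, 214 and 252 CPM in FID 1, 2 and 3, against 76.9, 121 and 149 CPM in Control 1, 2 and 3. These groups did not overlap either. Ccl9 had a log2 fold change of 0.89 (SE 0.25, 95% interval 0.30 to 1.48, adjusted p 0.160 in edgeR). Both genes passed in DESeq2, with adjusted p of 0.0479 for Ccl6 and 0.0305 for Ccl9. Unlike Ccl12, Ccl11 and Ccl5, Ccl6 was high in FID 1. The ratio of Ccl9 to Ccl6 was 0.911, 1.54 and 1.28 in FID 1, 2 and 3, against 0.990, 1.24 and 1.11 in Control 1, 2 and 3, and overlapped.

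**Figure D3:**
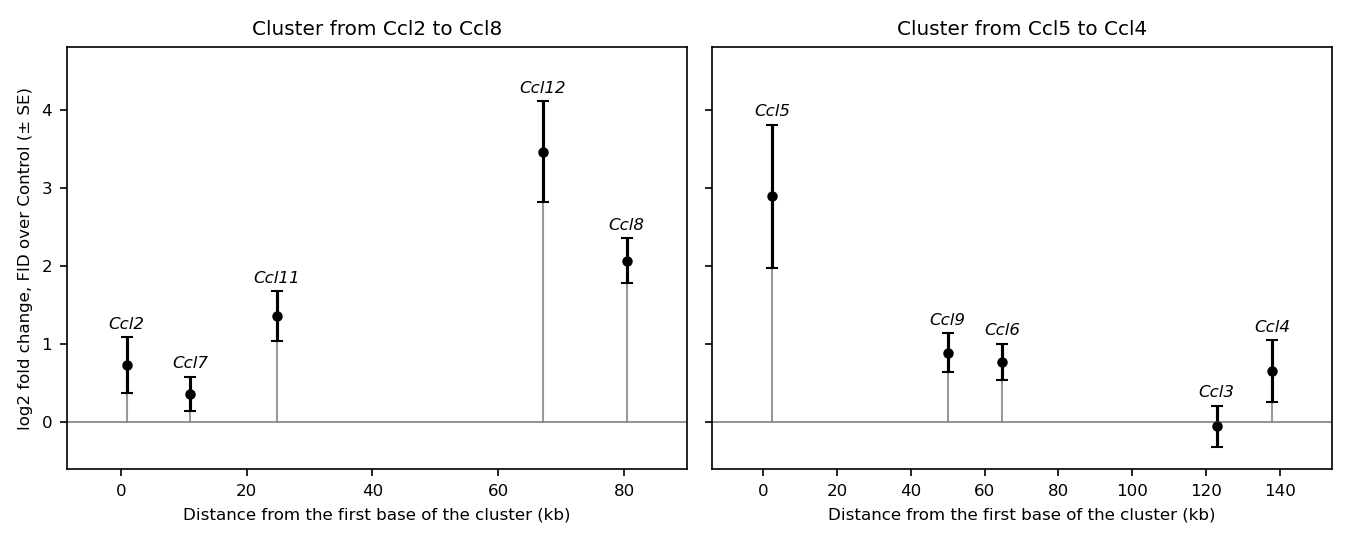
Log2 fold changes of FID over Control (points, bars for SE) against the distance in kb from the first base of each chromosome 11 cluster. In the left cluster the values of Ccl12 (3.46) and Ccl8 (2.07) stand above those of Ccl2 (0.73) and Ccl7 (0.36). In the right cluster Ccl5 (2.89) stands above Ccl9, Ccl6, Ccl3 and Ccl4.

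The makeup of the summed ligand signal differed accordingly. The 10 ligands summed to 805, 1369.8 and 1350.5 CPM per kb in FID 1, 2 and 3, against 597, 579 and 846 CPM per kb in Control 1, 2 and 3, so FID 1 lay below Control 3. Ccl7 took 29.5, 24.3 and 27.1% of that sum in FID, against 38.5, 34.1 and 35.4% in Control. Ccl8 took 5.78, 7.20 and 6.26% in FID, against 3.11, 3.36 and 1.99% in Control. Ccl12 took 2.24, 6.48 and 5.35% in FID, against 0.494, 0.718 and 0.989% in Control. Ccl11 took 10.901, 16.053 and 11.644% in FID, against 10.015, 8.8736 and 8.2817% in Control, with a small gap between FID 1 and Control 1. The shares of Ccl7, Ccl8, Ccl11 and Ccl12 did not overlap between the groups. Those of Ccl2, Ccl3, Ccl4, Ccl5, Ccl6 and Ccl9 did, with Ccl2 at 24.4, 25.7 and 28.7% in FID against 21.4, 26.5 and 33.5% in Control. No all-gene value is given for such shares, and they were not tested.

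The other CC ligand genes were near the limit of detection. Of 11 such genes, only Ccl24 and Ccl25 passed the filter on low counts, at no more than 2.37 CPM in FID and 4.36 CPM in Control libraries, and neither had an unadjusted p under 0.05. Ccl1, Ccl21a and Ccl26 had no count in any library. Ccl17 and Ccl22, ligands of CCR4 made by dendritic cells and alternatively activated macrophages, stayed at or below 0.338 CPM in every FID library and at or below 0.101 CPM in every Control library.

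Among 13 receptors and scavenging receptors of CC ligands, 5 passed the filter on low counts and 0 passed the adjusted threshold. An unadjusted p under 0.05 with FID higher was found in 2, against 9.81% of all genes. Those 2 were Ccr2 and Ccr1, and in each the groups did not overlap, with FID higher as in 13.0% of all genes. Ccr2 stood at 123, 176 and 219 CPM in FID, against 53.6, 61.3 and 90.0 CPM in Control (log2 fold change 1.33, SE 0.27, edgeR adjusted p 0.136, and 0.0393 without FID 1). Ccr1 stood at 35.7, 32.8 and 44.6 CPM in FID, against 30.3, 28.9 and 22.4 CPM in Control (log2 fold change 0.48, SE 0.18, edgeR adjusted p 0.222).

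Several other receptors were scarcely detected. Ccr8, the mouse receptor of Ccl8, had no count in any library, and Ccr3, the receptor of Ccl11, stood at 0.315 to 1.24 CPM in FID and 0.195 to 0.989 CPM in Control. Ackr2, a scavenging receptor for many CC ligands, reached at most 0.315 CPM in FID and 0.593 CPM in Control. Ccrl2 and Ackr1 were well detected, and the groups overlapped in both. Ccrl2 stood at 97.2, 76.6 and 47.5 CPM in FID 1, 2 and 3, against 99.5, 51.1 and 24.6 CPM in Control 1, 2 and 3. Ackr1, a chemokine-binding receptor of venular endothelium, stood at 33.0, 69.4 and 24.6 CPM in FID 1, 2 and 3, against 111, 32.2 and 16.8 CPM in Control 1, 2 and 3, highest in Control 1. The median log2 fold change of the 5 tested genes was 0.35, and it ranged from -0.01 without Control 3 to 0.79 without Control 1.

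**Figure D4:**
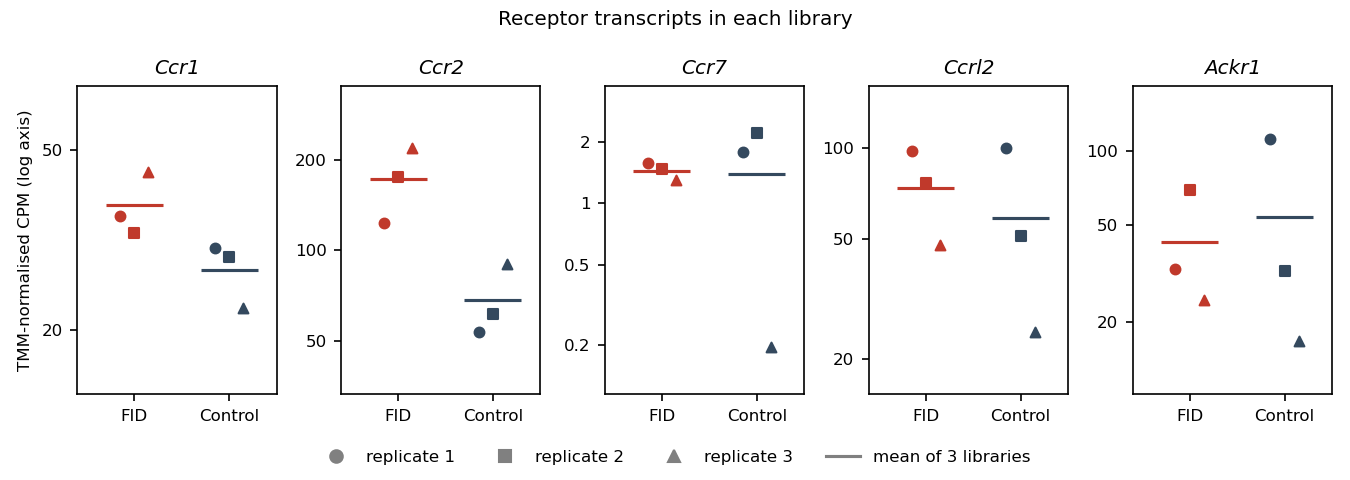
TMM-normalised CPM (log axis, a different range in each panel) of the 5 receptor genes that passed the filter on low counts, with symbols for replicate numbers and bars for group means. All 3 FID libraries lie above all 3 Control libraries in Ccr1 and Ccr2, and the groups overlap in Ccr7, Ccrl2 and Ackr1.

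Genes of cytokines known to induce CC ligands, and of NF-kB, were taken as a list. Among 13 tested, 11 had a log2 fold change below 0, with a median of -0.21 (0.04 without Control 1), and 0 passed the adjusted threshold. An unadjusted p under 0.05 was reached by 1 of the 13 with FID higher, against 9.81% of all genes. It was reached by 2 with FID lower, against 9.21%. Il1b, an inflammatory cytokine of myeloid cells, stood at 63.4, 67.1 and 67.6 CPM in FID 1, 2 and 3, against 51.0, 53.2 and 31.4 CPM in Control 1, 2 and 3 (log2 fold change 0.55, SE 0.20, edgeR adjusted p 0.214). Il6, a cytokine also made by FAPs, stood at 108, 91.7 and 43.5 CPM in FID, against 258, 96.9 and 196 CPM in Control (log2 fold change -1.18, SE 0.43, edgeR adjusted p 0.207). Nfkb2, a subunit of NF-kB, stood at 84.9, 80.3 and 85.7 CPM in FID, against 107, 101 and 97.0 CPM in Control (log2 fold change -0.28, SE 0.11, edgeR adjusted p 0.229). Every FID library lay above every Control library in 1 of the 13, Il1b, against 13.0% of all genes. The opposite order was found in 2, Nfkb2 among them, against 12.3% of all genes.

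Interferon-regulated genes were uneven among the FID libraries. Of 14 such genes, 12 had an unadjusted p under 0.05, all higher in FID, against 9.81% of all genes. In 4 of the 14 every FID library lay above every Control library, against 13.0% of all genes. The median log2 fold change was 2.01. Their mean log2(CPM + 1) was 5.91, 8.21 and 7.42 in FID 1, 2 and 3, against 6.12, 4.79 and 5.49 in Control 1, 2 and 3, so FID 1 lay within the Control range. Irf7, an inducer of interferon genes, stood at 181, 1561 and 1050.5 CPM in FID, against 186, 43.2 and 131 CPM in Control (log2 fold change 2.96, SE 0.81, edgeR adjusted p 0.152). Mx1, an antiviral GTPase, stood at 11.9, 102 and 48.6 CPM in FID, against 6.13, 5.07 and 8.69 CPM in Control (log2 fold change 3.02, SE 0.71, edgeR adjusted p 0.136). Without FID 1, the edgeR adjusted p was 0.0420 for Irf7 and 0.0229 for Mx1. The part of interferon signalling in the ligand values was not tested.

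Smaller lists near the ligands covered alternative macrophage activation and proteases. Of 6 tested genes of alternative macrophage activation, 1 had an unadjusted p under 0.05, with FID higher, against 9.81% of all genes. This was Arg1, an arginase, at 32.7, 13.4 and 35.9 CPM in FID 1, 2 and 3, against 11.7, 9.93 and 12.1 CPM in Control 1, 2 and 3 (log2 fold change 1.28, SE 0.35, edgeR adjusted p 0.153). Of 6 proteases known to trim chemokines, Mmp12, the macrophage elastase, stood at 22.5, 34.6 and 31.8 CPM in FID, against 20.8, 7.50 and 5.57 CPM in Control (log2 fold change 1.45, SE 0.47, edgeR adjusted p 0.180), and its log2 fold change was 2.18 without Control 1. Mmp2, a gelatinase of stromal cells that cleaves Ccl7, stood at 573, 558 and 466 CPM in FID, against 1055, 727 and 708 CPM in Control (log2 fold change -0.64, SE 0.19, edgeR adjusted p 0.166).

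Markers of cells that make or answer CC ligands were counted in the same way, and 0 genes of any marker list passed the adjusted threshold in edgeR. All 12 macrophage markers had a log2 fold change above 0 (median 0.74) and 7 of them lay higher in every FID library, where 13.0% of all genes did. They summed to 7359 to 9748 CPM in FID and 3424 to 5484 CPM in Control, with none at 0. The 10 monocyte markers had a median of 0.78, with 7 above 0, and summed to 4483 to 5731 CPM in FID and 6949 to 7468 CPM in Control, in which Fn1, fibronectin, which stroma also makes, was the largest part in every library. Of 11 FAP and fibroblast markers, 9 had a log2 fold change below 0 (median -0.53), and they summed to 22901 to 32728 CPM in FID and 42587 to 47860 CPM in Control. Most of that sum was Col1a1 and Col3a1. The other 9 genes summed to 4048 to 5409 CPM in FID and 4480 to 5268 CPM in Control, which overlapped. Ly6a, the progenitor surface marker Sca-1, is among those 9 and went the other way, so the overlap does not describe the rest of them. It stood at 497, 2327 and 1890 CPM in FID, against 434, 446 and 662 CPM in Control (log2 fold change 1.61, SE 0.51, edgeR adjusted p 0.179). Of the 11 markers, 5 lay lower in every FID library, Col1a1 and Col3a1 among them, and 0 lay higher in every FID library. The lower order was found in 12.3% of all genes. Col1a1, a chain of type I collagen, stood at 14402, 10911 and 10260 CPM in FID, against 23312, 22389 and 20284 CPM in Control (log2 fold change -0.89, SE 0.18, edgeR adjusted p 0.136, and 0.0363 without FID 1). Endothelial markers summed to 1127 to 1923 CPM in FID, against 1141 to 4377 CPM in Control, and the highest value was that of Control 1. In bulk RNA, more cells of a type and more RNA per cell cannot be told apart, and the part of these markers in the ligand values was not tested.

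Set against the macrophage markers library by library, the ligands showed different patterns. Each ligand's log2(CPM + 1) minus the mean over the 12 macrophage markers is given here as a description, with no test. The marker mean itself was higher in FID by 0.91 log2 units, so on this scale the median difference over all 12881 tested genes was -0.91, and 70.4% of them lay lower in every FID library, against 0.241% that lay higher. For Ccl8 this difference was -4.06, -3.25 and -3.19 in FID 1, 2 and 3, against -4.83, -4.51 and -4.12 in Control 1, 2 and 3, with no overlap but only a small gap between FID 1 and Control 3. For Ccl3 it was -3.98, -3.86 and -3.75 in FID, against -2.78, -3.11 and -2.95 in Control, and its difference of -0.92 was close to the median over all genes. For Ccl12 it was -5.27, -3.33 and -3.34 in FID, against -6.85, -6.27 and -4.93 in Control, and FID 1 lay below Control 3.

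For the other 7 ligands the groups overlapped on this scale. Ccl9 and Ccl6, whose CPM separated the groups, had FID minus Control differences of 0.02 and -0.12 log2 units. Those of Ccl2, Ccl7, Ccl4, Ccl11 and Ccl5 were -0.15, -0.55, -0.34, 0.35 and 0.96 log2 units. These values rest on single libraries: Ccl2 ranged from -0.57 without Control 1 to 0.42 without Control 3, Ccl6 from -0.48 to 0.32 and Ccl9 from -0.43 to 0.46 over the same pair of omissions. Ccl5 ranged from 0.19 without FID 2 to 1.85 without FID 1, Ccl4 reached 0.01 without FID 1, Ccl7 reached -0.15 without Control 3, and Ccl11 ranged from 0.14 without FID 2 to 0.70 without Control 3. Against the 10 monocyte markers instead, whose mean was higher in FID by 0.96 log2 units, Ccl8, Ccl11 and Ccl12 lay higher in every FID library, against 0.287% of all genes. Ccl7 lay lower in every FID library, as did 62.4% of all genes, and Ccl3 overlapped.

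**Figure D5:**
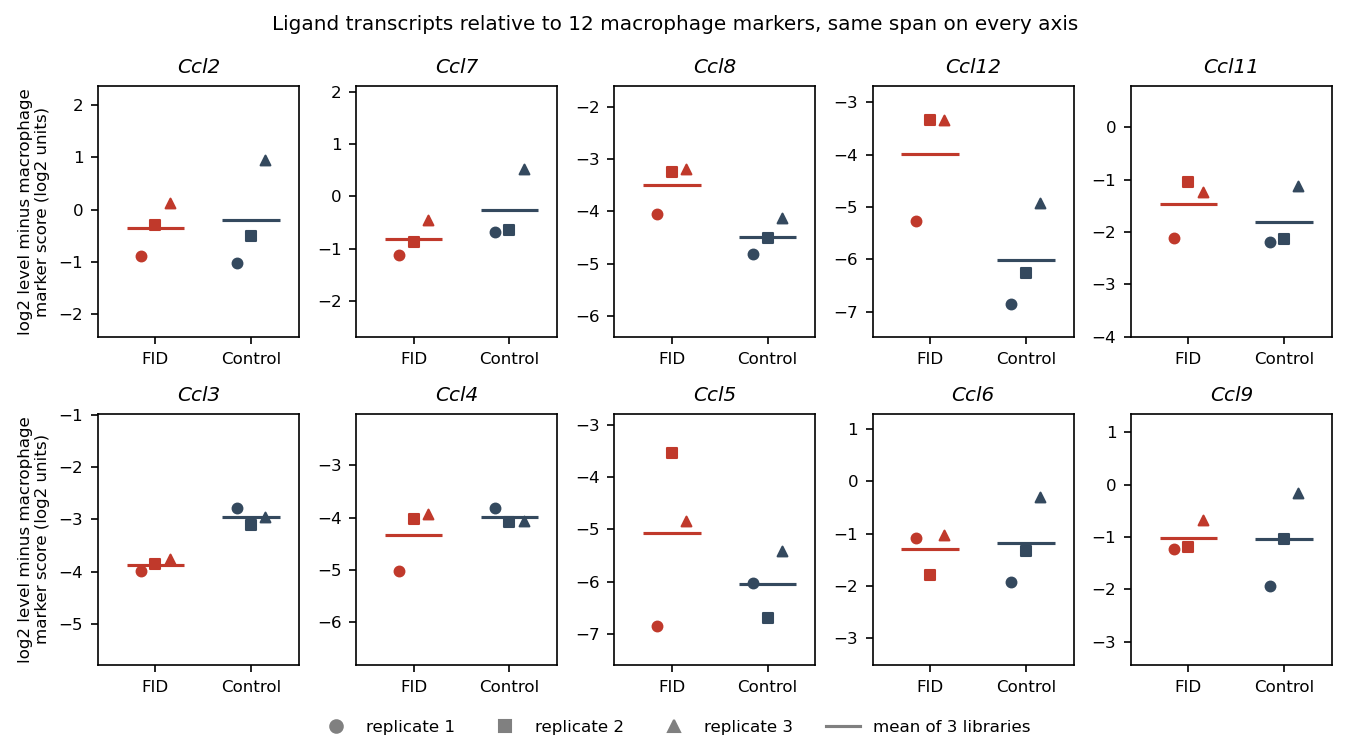
Each ligand's log2(CPM + 1) minus the mean over 12 macrophage markers, in log2 units, in the 3 FID and 3 Control libraries, with symbols for replicate numbers and bars for group means. The axes have the same span in every panel but different centres. A gene with equal CPM in both groups lies about 0.91 units lower in FID, as Ccl3 does. Ccl8 lies higher in every FID library, and the groups overlap in the other 8 panels.

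The genes whose profiles over the 6 libraries were closest to those of the ligands were sought among all 12881 tested genes. Closeness was the root mean square difference between centred log2(CPM + 1) values. The closest of so many genes lie below the median difference by selection, so the medians given show scale only. For Ccl8 they were Il7r, the interleukin-7 receptor, at 0.11 log2 units, and the macrophage membrane genes Ms4a6c and Ms4a6d, both at 0.16, where the median over all tested genes was 1.03. Il7r stood at 32.5, 64.0 and 52.5 CPM in FID 1, 2 and 3, against 14.6, 12.9 and 12.9 CPM in Control 1, 2 and 3. For Ccl12 they included Slfn1 at 0.38 and Mx1 at 0.42 (median 1.67), and for Ccl5 Slfn4, Lipg and Cmpk2 at 0.28, 0.30 and 0.32 (median 1.44). Slfn1 and Slfn4 belong to the interferon-inducible Schlafen family. For Ccl3 they were Rel, a subunit of NF-kB, at 0.045, Ubr4 at 0.047 and Smox at 0.064 (median 0.40). For Ccl11 they were Nt5c3, Cd52 and Zup1, at 0.10, 0.13 and 0.13 (median 0.79). Among the ligands themselves, the closest pairs were Ccl6 with Ccl9 at 0.25 and Ccl2 with Ccl9 at 0.26.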

How the data were processed

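Counts of reads per Ensembl gene were deposited by the authors for 6 libraries, 3 FID and 3 Control as their titles name them. The submitters' processing notes name mm10 as the build and, with no role, Bowtie2 2.5.4, HTSeq, STAR, cutadapt, DESeq2 and SAMtools. Strand setting and gene annotation: not given in the sources used here. Per the labels' protocols, a strand-specific kit and 1000 ng of RNA with integrity numbers above 5.6 were used. Of 43432 genes, 42462 (97.8%) matched a symbol. Entries naming no gene (9.60% to 10.9% of each file) were left out, among them reads matching several places (3.11% to 4.49%). Libraries of a group differed far beyond sampling noise (chi-square over its degrees of freedom, 14.1 to 46.0).

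Genes were filtered with filterByExpr (minimum count 10, minimum total 15; 12881 kept), scaled by TMM and tested with edgeR 4.0.16 (quasi-likelihood, group as the only term, Benjamini-Hochberg over all genes, threshold 0.05), checked on simulated data. SE is the absolute log2 fold change over the square root of F, and 95% intervals use it. DESeq2 1.42.0, limma 3.58.1 and left-out libraries were alternatives. Exact permutation of 3 against 3 cannot go below 0.10, so none is given. Members and lists were chosen with earlier results of these data known. Genes named are the members, up to 5 genes with an unadjusted p under 0.05 per pathway list, receptors of members and abundant markers. For some ligands only, genes among the 3 closest profiles are named. Of the 41 genes beside members that the rule took from lists, the choice of those in the text was made with their values in view. So was that of the markers at 0, Ckm, Mb, Igf1, Ackr1, Ccrl2, Ly6a, Ccl17, Ccl22, Ccl24 and Ccl25. A receptor, left out of its list, and 1 gene with a profile close to that of Ccl12 are not reported here. All-gene values relative to marker lists and the collagen-free sum were added after seeing the data.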

Additional observations from a re-analysis of the deposited data

How the results depend on the processing

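In edgeR with all libraries 0 of the 10 ligands and 0 of 12881 genes passed the adjusted threshold, and 6 and 2449 had an unadjusted p under 0.05; 0 of 124 tested genes of the other lists passed. The counts of ligands, all genes and list genes past the threshold were 6, 764 and 35 in DESeq2, 3, 269 and 21 without a filter on low counts, and 5, 1531 and 42 in limma-voom with sample weights, against 0, 0 and 0 in limma-voom and with RLE size factors. With 1 library left out they ranged from 0 to 4, 0 to 319 and 0 to 24, the highest without FID 1, and without Control 1 edgeR called 3 genes, none a ligand. The cause of these differences was not tested. With a replicate block, edgeR called 0 ligands and 0 genes. The block lowered the SE of some ligands (Ccl2, 0.36 to 0.19) and raised that of others (Ccl4, 0.40 to 0.46). Deviations of same-numbered libraries correlated at -0.013, -0.32 and 0.343, and those of differently numbered libraries at -0.379 to 0.332. With so few libraries, these values do not settle whether the numbers pair the libraries. Ccl3 had a positive log2 fold change in limma-voom (0.042), with sample weights (0.10), without Control 1 (0.26) and without FID 1 (0.05), ranging from -0.25 to 0.26 with 1 library left out, and the cause was not tested; the other 9 ligands kept theirs above 0 under all 12 alternatives. The difference of Ccl8 from the macrophage markers (0.99) stayed between 0.82 and 1.27 with 1 library left out, an alternative added after seeing the data, and that of Ccl3 (-0.92) between -1.0 and -0.84, both beside a median of -0.91 over all genes. Depth limits Ccl12 and Ccl5 in Control most.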
